A study of Mus musculus with 17 samples.

Results

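Acetylation of histone H3 at lysine 9 (H3K9ac) was examined far from gene starts, at regions lying inside introns of mouse genes. A region belonged to this set when the deposited table placed it in an intron and in no 3′ untranslated region, more than 10000 bases from the nearest transcription start site, and gave it a length under 4000 bases. Of 57499 H3K9ac regions, 14019 (24.4%) met the rule, and they are called deep intronic peaks here. The livers came from C57BL/6 mice, a common inbred strain, fed for 10 weeks on a diet with 60% of its calories from fat (high-fat diet, HFD) or on one with 18% (control diet, CD). H3K9ac was measured by chromatin immunoprecipitation and sequencing in 3 HFD livers (A, B and D) and 3 CD livers (A, C and D), and RNA was sequenced from 4 HFD and 4 CD livers (A to D). The labels give no age, sex, hour of collection or feeding state, and do not say whether equal letters in the 2 assays mark 1 animal. They also do not say whether the libraries of an assay came from separate animals, and each library is called a liver here.

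H3K9ac is laid down by histone acetyltransferases and removed by deacetylases, and it marks open, actively transcribed chromatin. It is densest around the starts of active genes, and it is also found at active enhancers, many of which lie in introns and are bound in liver by hepatocyte transcription factors and nuclear receptors. An intronic enhancer may act on its host gene or on a neighbour, so the host is used here as an address and not as a target.

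Total H3K9ac counts per library lay between 9255635 and 12149497, so that 3 counts, taken as the detection floor, corresponded to 0.247 to 0.324 CPM (counts scaled to a common library size). Total RNA counts lay between 31802893 and 37596560. Levels are in CPM after scaling with TMM factors, and a change is the log2 ratio of HFD to CD, given with its standard error (SE). A region or gene is called where edgeR's quasi-likelihood test gave a Benjamini-Hochberg adjusted p under 0.05 over all regions or all genes. RNA of hepatocyte marker genes summed to 109254 to 136681 CPM in HFD livers and 96547 to 113330 CPM in CD livers, and the liver label held. Summed RNA of 14 macrophage markers was 188 to 506 CPM in HFD and 243 to 358 CPM in CD, and the sums of the endothelial, stellate and lymphocyte markers overlapped between the diets as well. Summed RNA of 7 measured bile duct markers was 58.3 to 87.4 CPM in HFD and 88.3 to 103 CPM in CD, without overlap, with 1 of the 7 lower in HFD. The part of these cells in the H3K9ac results was not tested, and in bulk tissue fewer cells of a type cannot be told apart from less signal per cell.

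Among the deep intronic peaks, 174 (1.24%) held the start of a gene in the RefSeq annotation (GRCm38.p6), even though the deposited distances placed them over 10000 bases from a start. They had a median level of 7.31 CPM, against 1.91 CPM for the other 13845. Reference sequence was used for such starts only. The windows shown are those of the 3 called peaks with a start and of the peak with the highest level. Each runs from 250 bases before to 50 bases after the start. Capitals mark matches to the motifs searched.
Serpina12 intron, start of the non-coding RNA Gm31271, chr12:104032075-104032374, plus strand: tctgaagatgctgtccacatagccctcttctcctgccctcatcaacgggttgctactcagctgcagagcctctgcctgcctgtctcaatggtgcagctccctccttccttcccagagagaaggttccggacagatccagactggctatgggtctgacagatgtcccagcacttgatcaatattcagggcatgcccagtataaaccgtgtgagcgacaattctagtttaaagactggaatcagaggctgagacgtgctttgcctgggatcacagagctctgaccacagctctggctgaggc
Rbm20 intron, start of the non-coding RNA Gm16299, chr19:53825163-53825462, minus strand: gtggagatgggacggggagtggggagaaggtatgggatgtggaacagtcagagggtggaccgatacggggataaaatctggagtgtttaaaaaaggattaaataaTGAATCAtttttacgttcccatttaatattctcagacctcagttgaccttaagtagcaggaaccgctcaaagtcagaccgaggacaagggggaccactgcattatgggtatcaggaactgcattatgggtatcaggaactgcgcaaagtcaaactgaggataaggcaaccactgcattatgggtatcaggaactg
2900026A02Rik intron, start of the non-coding RNA Gm42161, chr5:113145086-113145385, plus strand: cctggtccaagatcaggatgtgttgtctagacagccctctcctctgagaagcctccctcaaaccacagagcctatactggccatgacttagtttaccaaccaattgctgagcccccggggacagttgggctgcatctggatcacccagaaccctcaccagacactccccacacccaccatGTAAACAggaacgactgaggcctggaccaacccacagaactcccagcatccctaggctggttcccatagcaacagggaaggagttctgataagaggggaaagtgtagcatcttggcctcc
Foxn3 intron, start of Gm51999, chr12:99391916-99392215, plus strand: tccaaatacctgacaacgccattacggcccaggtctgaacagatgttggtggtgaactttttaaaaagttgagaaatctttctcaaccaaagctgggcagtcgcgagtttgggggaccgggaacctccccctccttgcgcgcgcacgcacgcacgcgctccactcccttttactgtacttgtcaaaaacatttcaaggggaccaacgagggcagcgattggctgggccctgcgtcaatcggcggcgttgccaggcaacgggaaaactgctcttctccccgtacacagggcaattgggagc
The motifs, searched on both strands, were CACGTG (E-box), TTATGTAA and TTACGTAA (D-box), TAGGTCA (ROR), TGTTTAC (forkhead), TTGCNNAA (C/EBP), TTCNNNGAA (STAT), TGANTCA (AP-1), CAAAGGTCA (direct repeat), CAAAGTCCA (HNF4), GTTAATNAT (HNF1) and TGACGTCA (CRE). The ROR and direct repeat motifs share the letters AGGTCA. The Rbm20 window held an AP-1 match, a motif present in 7.69% of the 195 windows within deep intronic peaks and in 7.81% of all 32851 RefSeq promoter windows. The 2900026A02Rik window held a forkhead match on its minus strand, present in 7.69% of the windows within deep intronic peaks and 3.65% of all promoter windows. The Serpina12 and Foxn3 windows held no match. A match is a description of the letters and not of binding.

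Deep intronic peaks were short and weak compared with regions at gene starts. Their median length was 442 bases (quartiles 310 to 726), and their median level 1.93 CPM, or 4.46 CPM per kilobase, with a median of 21.2 reads per library. The 13830 promoter-proximal regions, within 1000 bases of a start, had a median length of 1318 bases and a median level of 34.7 CPM, or 24.5 CPM per kilobase. The median distance of a deep intronic peak to the nearest start was 25.8 kb (quartiles 15.7 to 46.9 kb, largest 1270 kb). That start belonged to the host gene for 9636 peaks (68.7%) and to another gene for 4383. An enhancer target entry in the deposited table, whose source is named for the adipocyte line 3T3-L1, was present for 1035 of them (7.38%), against 7.53% of all regions. The chromosomes with the highest counts, not adjusted for size, were 4 (1268), 11 (1181) and 5 (1153).

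They were spread over 3579 host genes, of which 1496 held 1 peak, and the median was 2. Tns1, which encodes the focal adhesion protein tensin, held the most with 63 over a gene of 214 kb. Mtss1, an actin regulator, held 56, the protein kinase gene Prkce held 49, and the podosome scaffold Sh3pxd2a held 47. Host genes with more peaks were longer and had more RNA. The median RNA level was 4.75 RPKM (reads scaled to gene length and library size) for hosts of 1 peak and 7.64 for the 335 hosts of 10 or more, with median gene spans of 44.3 and 110 kb.

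The strongest deep intronic peaks were at the level of promoters, and each of the 5 strongest had HFD and CD values that overlapped. The peak in Foxn3, a forkhead repressor, had 175, 168 and 198 CPM in HFD livers A, B and D, against 189, 187 and 196 CPM in CD livers A, C and D (log2 change -0.08, SE 0.07, adjusted p = 0.776 by edgeR). That in Macf1, a cytoskeletal linker, had 164, 162 and 195 CPM in HFD, against 181, 186 and 210 CPM in CD. The next were in Tns1, the chromatin remodeller Chd9 and the ubiquitin ligase Rnf114, with mean levels of 172, 171 and 154 CPM in HFD and 177, 168 and 156 CPM in CD. Despite the deposited distances, the Foxn3 peak held the RefSeq start of the protein-coding gene Gm51999. The Rnf114 peak held the RefSeq start of Rnf114 itself, so the levels of these peaks may be those of promoters.

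The share of the mark held by the whole set differed between the diets by less than the spread between livers. Deep intronic peaks took 5.45, 5.58 and 4.98% of the H3K9ac counts in HFD livers, against 5.63, 5.26 and 5.44% in CD livers. The means were 5.34% ± 0.319 in HFD and 5.44% ± 0.186 in CD (SD, n = 3 each, exact permutation test, two-sided p = 0.7, smallest possible 0.10). Without HFD liver D, the lowest of the 6, the difference turned to 0.0742 percentage points higher in HFD. Promoter-proximal regions took 71.1, 70.9 and 73% in HFD, against 70.6, 71.7 and 71.7% in CD (exact p = 0.8).

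At single deep intronic peaks, 94 were called higher and 187 lower in HFD, 281 of 14019. This is 2% of them, below the 2.39% of all regions called (0.835% higher and 1.55% lower). At an unadjusted p under 0.05 the shares were 10.9% of deep intronic peaks and 11% of all regions. HFD and CD values did not overlap at 2176 of them (15.5%, against 15.4% of all regions), and at 260 of the 281 called. The median log2 change was -0.03 over deep intronic peaks and -0.00 over all regions. Among the called peaks the median size of the change was 0.84 (log2), the smallest 0.35, and 94 changed at least 2-fold. Without HFD liver D 345 peaks were called, 179 higher and 166 lower, so that the split between increases and decreases moved with this library. Without HFD liver B the count was 104, and it was 181 without HFD liver A and likewise without CD liver C. When each of the 6 libraries was left out in turn, 73 of the 281 calls were kept every time, 16 higher and 57 lower, in 52 host genes. The authors' deposited table, at the same threshold, has 312 deep intronic peaks, 107 higher and 205 lower, and 274 of these are among the 281.

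**Figure D1:**
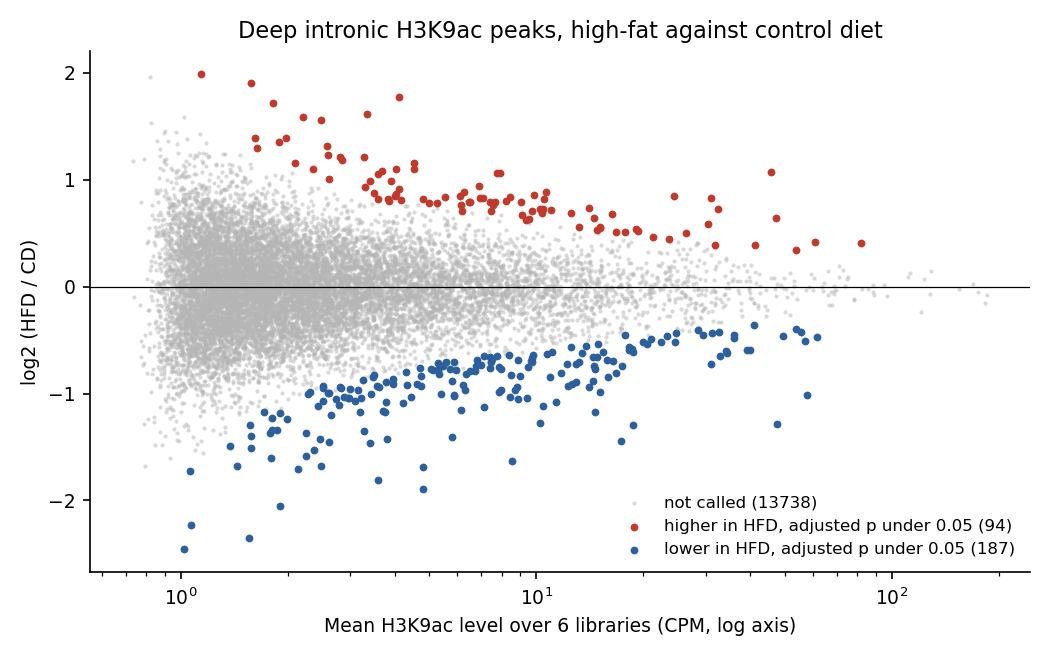
Change of H3K9ac (log2 of HFD over CD) against mean level over the 6 libraries (CPM, log axis) for the 14019 deep intronic peaks, with 94 called higher (red) and 187 called lower (blue). Large changes lie among weak peaks, and the 5 strongest peaks lie near 0.

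The share called was larger at higher levels of the peak. Below 1.5 CPM 6 of 4740 deep intronic peaks were called (0.127%), between 12 and 24 CPM 50 of 464 (10.8%), between 24 and 48 CPM 25 of 191 (13.1%), and from 48 CPM upwards 9 of 64 (14.1%). For promoter-proximal regions the shares were 0.136% below 1.5 CPM, 2.52% at 12 to 24 CPM, 3.19% at 24 to 48 CPM and 3.7% from 48 CPM upwards. For all regions other than deep intronic peaks they were 0.163% below 1.5 CPM and 5.16, 4.92 and 4.74% in the same upper ranges. Most of these other regions were promoter-proximal there (1588 of 2925, 2444 of 3192 and 5645 of 6534). The promoter-proximal ones held a smaller part of the calls (40 of 151, 78 of 157 and 209 of 310) than of the regions. Shares by level for other regions away from promoters were not computed separately, so the higher shares cannot be taken as particular to deep intronic peaks. Over all levels, 2.57% of intronic regions within 10 kb of a start were called. The share was 2.49% for regions over 10 kb away outside annotated gene parts, and 2% for deep intronic peaks. At 3 to 6 CPM the shares were 2.93% for deep intronic peaks, 1.58% for promoter-proximal regions and 3.07% for all other regions. Below 6 CPM deep intronic peaks and all other regions therefore lay close together. The median SD of log2 CPM between livers of 1 diet was 0.152 in deep intronic peaks and 0.111 in promoter-proximal regions at 24 to 48 CPM, and 0.205 in both at 6 to 12 CPM. At 24 to 48 CPM the median size of the change was 0.171 (log2) in deep intronic peaks and 0.077 in promoter-proximal regions. Distance made little difference to the share called, which was 1.93% at 10 to 20 kb, 2.08% at 20 to 50 kb, 2.15% at 50 to 100 kb and 1.59% beyond 100 kb. The difference between these shares was not tested.

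**Figure D2:**
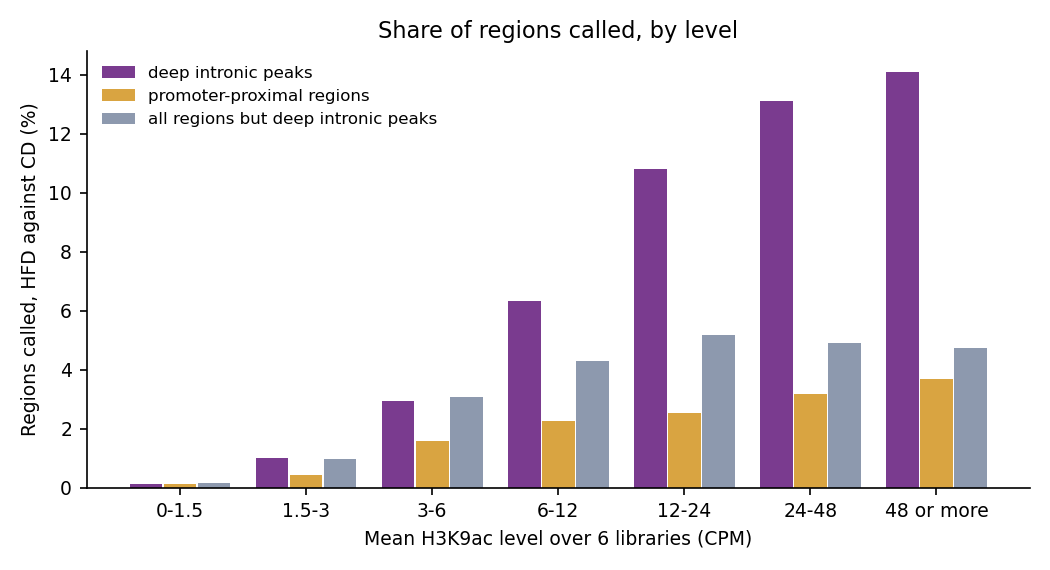
Share of regions called between the diets (%), by mean H3K9ac level (CPM), for deep intronic peaks, promoter-proximal regions and all regions other than deep intronic peaks. From 12 CPM upwards the deep intronic bars stand between 10.8 and 14.1%. The bars of both other classes are lower, and most regions of the last class are promoter-proximal at these levels.

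The smallest p among deep intronic peaks belonged to a peak in Sh3pxd2a (chr19:47312270-47315328), 40.2 kb from the nearest start, that of Mir6995. It had 31.3, 24.1 and 27.5 CPM in HFD livers, against 72.2, 57.8 and 72.1 CPM in CD livers (log2 change -1.29, SE 0.10, edgeR adjusted p = 1.56e-14). All HFD livers lay far below all CD livers. The second belonged to a peak that rose, in Fdft1, which encodes squalene synthase, the enzyme that commits isoprenoids to sterol synthesis (chr14:63164295-63165810, 14.5 kb from its start). It had 64.4, 68.5 and 52.8 CPM in HFD, against 27, 32.7 and 28.6 CPM in CD (log2 change 1.07, SE 0.10, edgeR adjusted p = 7.98e-12). The lowest HFD liver was well above the highest CD liver, while the RNA of Fdft1 was lower in HFD, as given further on.

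Among the next smallest p were further decreases. A peak in Adcy1, an adenylyl cyclase that makes cyclic AMP (chr11:7150600-7152445), had 9.37, 12.5 and 5.82 CPM in HFD, against 28.6, 27.3 and 20.4 CPM in CD (log2 change -1.44, SE 0.16, edgeR adjusted p = 1.31e-09). A peak in Crtc3, a coactivator of the cyclic AMP responsive factor CREB (chr7:80653050-80655193), had 13.8, 9.38 and 9.12 CPM in HFD, against 30.4, 25.9 and 23.4 CPM in CD (log2 change -1.29, SE 0.14, edgeR adjusted p = 1.55e-09). At both peaks the diets stood apart. The peak in Serpina12, which encodes the serpin vaspin, is the one whose start window is printed above (chr12:104032038-104033138). It had 7.24, 5.99 and 4.61 CPM in HFD, against 17.1, 15.7 and 10.8 CPM in CD (log2 change -1.27, SE 0.18, edgeR adjusted p = 1.42e-06).

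Among called peaks at or above the median level whose diets did not overlap, the 10 largest decreases were in 7 genes, with log2 changes between -1.89 and -1.46. They comprised 4 peaks in Asap2, and 1 each in Sh3pxd2a, the lysosomal transporter gene Dirc2, the torsin gene Tor3a, Mreg, Pvt1 and the collagen gene Col4a1. The peak in Dirc2 had 0.766, 1.56 and 1.21 CPM in HFD, against 4.11, 4.33 and 2.87 CPM in CD (log2 change -1.68, SE 0.29, edgeR adjusted p = 8.56e-05). The peak in Col4a1, which encodes a basement membrane collagen chain, had 1.53, 1.3 and 1.32 CPM in HFD, against 4.73, 3.58 and 3.17 CPM in CD (log2 change -1.46). These are weak peaks whose diets stood apart.

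The 10 largest increases by the same rule were in 10 genes, with log2 changes between 1.19 and 1.78. The largest was in Rbm20, a splicing regulator known from heart muscle (chr19:53824824-53825631). By the deposited distance this peak lay 67 kb from the nearest start, but it also held the RefSeq start of Gm16299 printed above. It had 6.56, 8.34 and 4.28 CPM in HFD, against 1.34, 2.92 and 1.29 CPM in CD (log2 change 1.78, SE 0.26, edgeR adjusted p = 2.39e-06), without overlap. Others were in Ddc, the decarboxylase that makes dopamine and serotonin (1.62), the DNA end-joining factor Nhej1 (1.59), the Hippo pathway factor Tead1 (1.56), Ankrd29 (1.39), the G-protein regulator Rgs8 (1.31), the recombination gene Rad51b (1.23), Pptc7 (1.22), the arsenic methyltransferase As3mt (1.21) and Wdfy4 (1.19), a gene known for antigen cross-presentation in dendritic cells. Without HFD liver B the calls in Tead1, Rgs8, Rad51b, Ankrd29 and Wdfy4 were lost, with adjusted p between 0.0547 and 0.104. The call in Tead1 was also lost without CD liver C (adjusted p = 0.0555) and that in Rad51b without CD liver D (adjusted p = 0.0891).

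**Figure D3:**
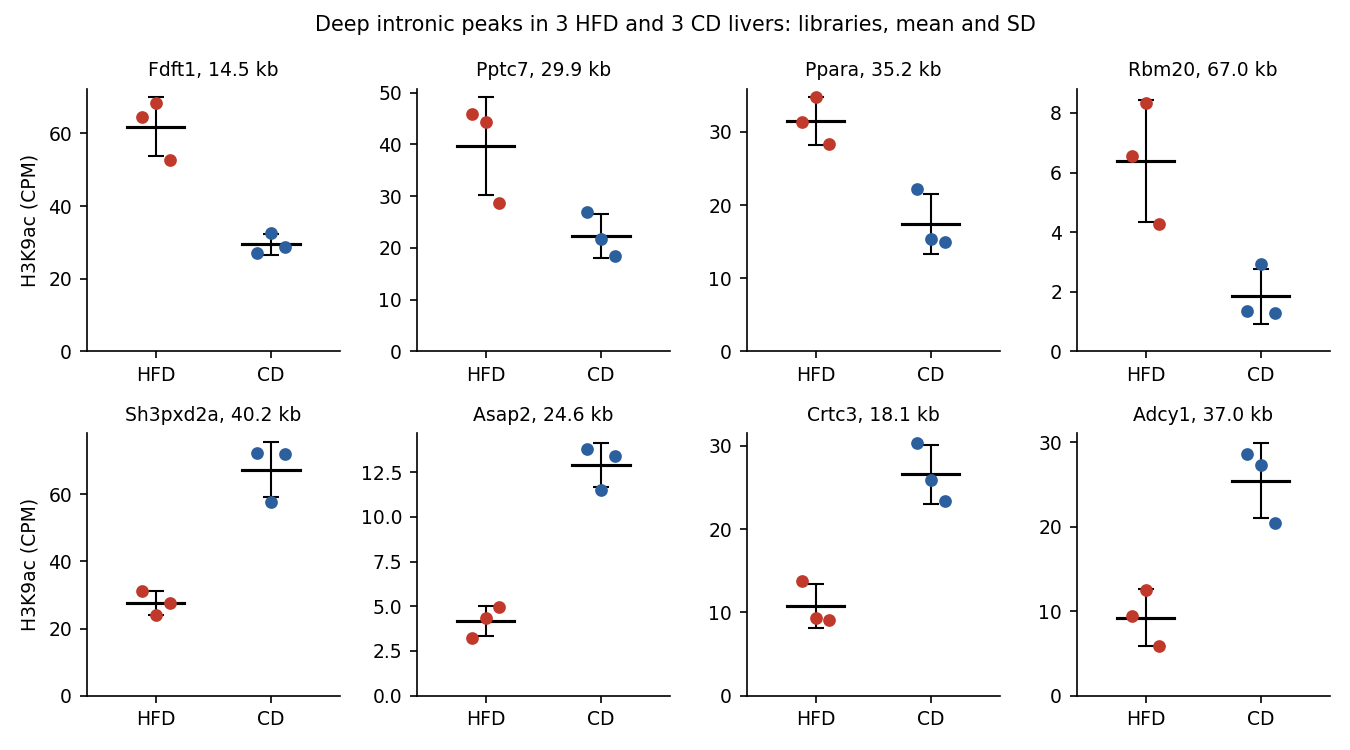
H3K9ac level (CPM) of 8 deep intronic peaks in 3 HFD livers (red, left) and 3 CD livers (blue, right), with mean and SD. Each title gives the host gene and the deposited distance of the peak to the nearest gene start. The Rbm20 peak also holds a RefSeq start, that of Gm16299. The 4 peaks in the upper row are higher in HFD and the 4 in the lower row are lower, and the diets do not overlap in any of the 8.

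Called peaks often lay beside each other and moved together. Of the 281 called, 119 (42.3%) had another called deep intronic peak within 10 kb, and for 117 of the 119 all such neighbours had the same direction. Of the 13738 not called, 602 (4.38%) had a called one within 10 kb, and for 516 of the 602 all such neighbours had the same direction. The 281 fell in 195 host genes, and 46 hosts had at least 2, together 132. In 33 of the 46 all called peaks were lower in HFD, in 12 all were higher, and in 1, Camk2b, 3 were higher and 2 lower. Neighbouring peaks share livers and may share reads of 1 broad domain, so they are not independent.

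In Asap2, an activator of GTP hydrolysis by ARF proteins, 5 of 14 deep intronic peaks were called, all lower, and 13 of the 14 had a negative change. Of these, 4 lay within 10 kb on chromosome 12. The strongest (chr12:21135553-21137144) had 3.24, 4.34 and 4.94 CPM in HFD, against 13.8, 11.5 and 13.4 CPM in CD (log2 change -1.63, SE 0.19, edgeR adjusted p = 4.42e-09). The weakest, with 2, 6 and 2 reads in HFD and 22, 21 and 15 in CD, had the largest fitted decrease of any called deep intronic peak (log2 change -2.45, SE 0.54, edgeR adjusted p = 0.00316). Another (chr12:21167591-21168261), 56.2 kb from the start, had 1.96, 1.48 and 2.75 CPM in HFD, against 7.68, 7.58 and 7.33 CPM in CD (log2 change -1.89, SE 0.23). Changes grew smaller towards the end of the gene, and the last peak, 153 kb from the start, had a log2 change of 0.00 (SE 0.24). The promoter-proximal region fell as well, by less (log2 change -0.86, SE 0.08, edgeR adjusted p = 2.43e-11).

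In Sh3pxd2a 6 of 47 deep intronic peaks were called, all lower, and 39 had a negative change. The 6 lay between 126 and 151 kb from the start of the gene, and those nearer to the start were not called. Without HFD liver B, 2 of the 6 calls were lost (adjusted p up to 0.175 over the libraries left out). Beside the strongest, given above, a peak at chr19:47336736-47337540 had 2.38, 2.61 and 1.76 CPM in HFD, against 8.13, 7.5 and 6.44 CPM in CD (log2 change -1.69, SE 0.22, edgeR adjusted p = 2.24e-07). The promoter-proximal region of Sh3pxd2a changed by less (log2 change -0.31, SE 0.08, edgeR adjusted p = 0.0114).

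Mreg, which encodes the vesicle transport protein melanoregulin, had 3 of 8 called, all lower, and all 8 negative. Its strongest called peak (chr1:72179085-72180604) had 7.24, 7.99 and 6.7 CPM in HFD, against 17, 15.4 and 14 CPM in CD (log2 change -1.08, SE 0.16, edgeR adjusted p = 6.65e-06). Crtc3 had 3 of 11, all lower and all 11 negative. In Ypel2 4 of 8 were called, all lower and all 8 negative. In Tex2 and Ergic1, whose proteins belong to the endoplasmic reticulum or its border with the Golgi, 5 of 33 and 5 of 25 were called, all lower. In the non-coding RNA gene Lincpint 5 of 44 were called and in Zbtb16, a zinc finger transcription factor, 4 of 41, all lower. Summed over all their deep intronic peaks, the log2 changes were -1.0 (SE 0.12) for Mreg, -0.90 (SE 0.12) for Crtc3, -0.79 (SE 0.11) for Ypel2 and -0.22 (SE 0.11) for Zbtb16, in a fit of such sums that called 4.19% of all 3579 hosts. The calls in Mreg were kept whichever library was left out, and at least 1 call in each of Crtc3, Ypel2, Tex2, Ergic1, Lincpint and Zbtb16 was lost without HFD liver B, among others (adjusted p up to 0.577).

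Pptc7, which encodes a phosphatase of mitochondria, had the most calls among hosts that rose, 6 of 9, and all 9 were positive, with log2 changes between 0.38 and 1.22. Its strongest peak (chr5:122312528-122316153) had 45.8, 44.4 and 28.7 CPM in HFD, against 26.9, 21.7 and 18.4 CPM in CD (log2 change 0.83, SE 0.13, edgeR adjusted p = 7.45e-06). HFD liver D was close to the highest CD liver, and by DESeq2 the adjusted p was 0.0506. A second peak in it had 10.8, 12.1 and 8.57 CPM in HFD, against 5.45, 4.75 and 4.95 CPM in CD (log2 change 1.06, SE 0.19), with the diets further apart. The calls of 3 of the 6 were lost without at least 1 library (adjusted p up to 0.39). In Fkbp5, a co-chaperone of the glucocorticoid receptor, 2 of 21 were called higher and 20 of the 21 were positive. At both called peaks the diets overlapped, and both calls were lost without HFD liver B (adjusted p up to 0.33 over the libraries left out).

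**Figure D4:**
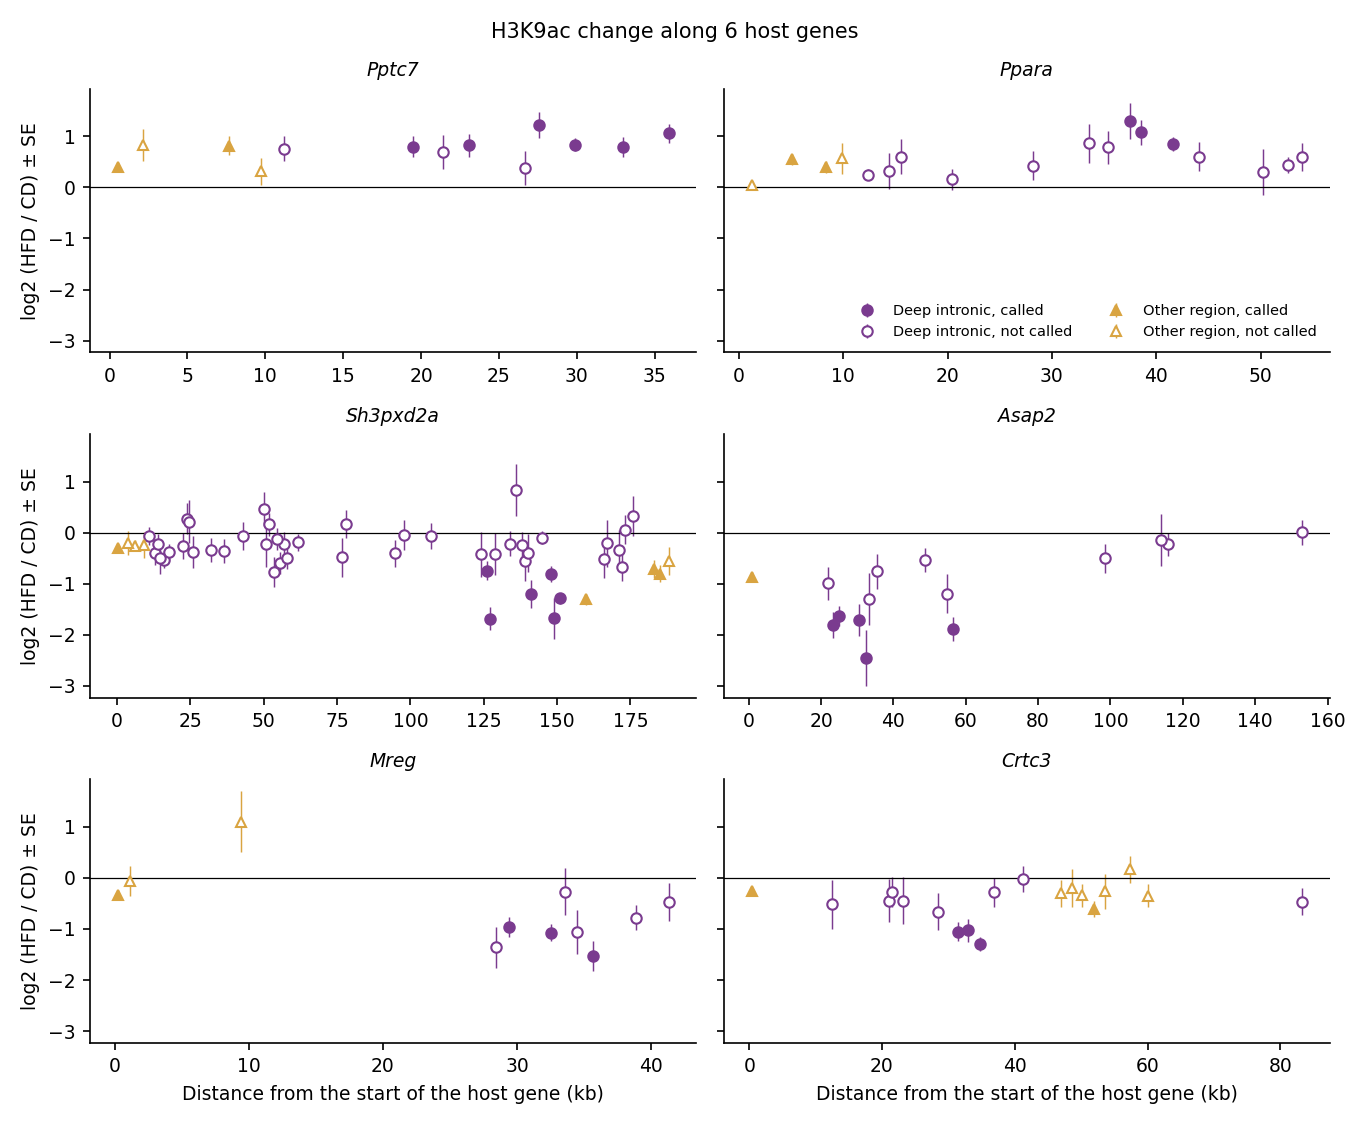
H3K9ac change (log2 of HFD over CD, with SE) against the distance of the region from the start of the host gene (kb) for 6 host genes; circles are deep intronic peaks, triangles other regions of the gene, and filled symbols are called. The called deep intronic peaks of Sh3pxd2a sit between 126 and 151 kb, and the changes in Asap2 approach 0 beyond 100 kb.

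Genes of lipid and energy regulation were described by lists. Of 155 deep intronic peaks in 21 genes of nuclear receptors and their coregulators, 4 were called higher and 5 lower (5.81%, against 2.39% of all regions), with a median log2 change of 0.05. The fatty acid receptor Ppara had 3 of 14 called, all higher, and all 14 were positive. Its strongest peak (chr15:85774492-85778490), the one of the 3 whose call was kept whichever library was left out, and just under the length limit at 3999 bases, had 31.3, 34.8 and 28.3 CPM in HFD, against 22.2, 15.3 and 14.9 CPM in CD (log2 change 0.85, SE 0.13, edgeR adjusted p = 5.96e-06). The promoter-proximal region of Ppara had a log2 change of 0.05 (SE 0.07, edgeR adjusted p = 0.882). Its relative Ppard had 2 of 16 called, both lower. The more clearly changed one had 8.18, 8.25 and 8.9 CPM in HFD, against 20.4, 12.8 and 15 CPM in CD (log2 change -0.93, SE 0.17, edgeR adjusted p = 1.21e-04). The promoter-proximal region of Ppard had a log2 change of -0.09 (SE 0.08, edgeR adjusted p = 0.759). The coactivator gene Ppargc1b had 1 called higher (0.56), and the corepressor gene Nrip1 had 1 called lower.

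In 11 genes of the circadian clock and its output, 4 of 56 deep intronic peaks were called higher and 1 lower (8.93%, against 2.39% of all regions). The list median was -0.06. A peak in Cry2, a repressor of the clock, had 45.6, 39.2 and 36.7 CPM in HFD, against 24.3, 23.4 and 25.8 CPM in CD (log2 change 0.73, SE 0.11, edgeR adjusted p = 5.20e-06). The output factor Hlf had 2 called higher (log2 changes 0.94 and 0.83), and Ccrn4l, the deadenylase-like nocturnin, had 1 (0.73). The clock activator Rora had 1 called lower, with 2.13, 2.17 and 2.09 CPM in HFD, against 4.64, 3.83 and 4.06 CPM in CD (log2 change -0.97, SE 0.25). The hour at which each liver was taken is not stated, so diet and hour cannot be told apart here.

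In sterol and bile acid genes 2 of 108 were called higher and 2 lower (3.7%, against 2.39% of all regions). The higher ones lay in Fdft1 and in Scarb1, the receptor for high-density lipoprotein (0.54). Both lower ones lay in Scap, the sterol-sensing escort of transcription factors (-0.76 and -0.78). The list median was -0.04. In genes of lipid synthesis, storage and uptake 1 of 179 was called higher and 1 lower (1.12%). The higher one lay in Fads2, a fatty acid desaturase, with 11.5, 12 and 8.57 CPM in HFD, against 5, 5.42 and 4.95 CPM in CD (log2 change 1.07, SE 0.19, edgeR adjusted p = 8.56e-05). The lower one lay in the acyltransferase gene Agpat3 (-0.51). In genes of xenobiotic metabolism and antioxidant defence 1 of 48 was called higher and 4 lower (10.4%), while DESeq2 called 1 of the 48. The higher one lay in the P450 reductase gene Por (1.0). The lower ones lay in the epoxide hydrolase gene Ephx1 (-0.94) and the aldehyde oxidase genes Aox1 (-0.79) and Aox3 (-1.07 and -1.34).

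Hepatocyte factor genes held 195 deep intronic peaks, of which 0 were called higher and 2 lower (1.03%, against 2.39% of all regions). These were 1 in Stat5b (-1.07), which carries growth hormone signals, and 1 in Gata4 (-0.78). Hormone and growth factor signalling genes held 148, with 1 called higher in Il6ra (0.51) and 1 lower in Lifr (-1.04), or 1.35%. In genes of glucose and glycogen metabolism 0 of 41 were called by edgeR and 0 by DESeq2, with 7 at an unadjusted p under 0.05. The same 2 counts were 0 of 37 for fatty acid oxidation, with 4 at an unadjusted p under 0.05, and 0 of 29 for histone acetylation enzymes, with 5. For genes with male-biased and female-biased liver expression, 0 of 18 and 0 of 7 were called by edgeR and by DESeq2, with 0 and 3 at an unadjusted p under 0.05. Among genes that mark cell types, the hepatocyte list had 1 of 23 called higher (4.35%), in the urea cycle gene Ass1 (0.53). The endothelial list had 0 of 37 called by either tool, with 3 at an unadjusted p under 0.05, the stellate list 0 of 7 with 1, and the bile duct and lymphocyte lists 0 of 7 and 0 of 3 with 0. The macrophage list held no deep intronic peak. Across all lists 30 called peaks lay in a listed gene, and 7 kept their call whichever library was left out. These were the peaks in Fdft1, Cry2, Fads2, Agpat3 and Ephx1 and the strongest in Ppara and the stronger change in Ppard. Calls in Hlf, Ccrn4l, Rora, Scap, Scarb1, Ppargc1b, Nrip1, Stat5b, Gata4, Il6ra, Lifr, Por, Aox1, Aox3 and Ass1 were lost without at least 1 library, with adjusted p up to 0.501.

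The RNA of the host genes was then set beside the peaks. Of the 3579 hosts, 2993 were in the RNA table, and 307 of these were called (10.3%, against 7.27% of all 12334 genes by edgeR, of which 3.63% were higher and 3.64% lower). The share was 8.03% for hosts of 1 peak, 9.93% for 2 to 4, 11% for 5 to 9 and 17.7% for 10 or more, and median RNA level and gene span rose along the same order. Of the 281 called peaks, 255 had a measured host. For 91 of them (35.7%), in 54 hosts, the host was called in RNA, against 1607 of 12632 (12.7%) for peaks that were not called. The direction of peak and RNA was the same for 80 of the 91 and opposite for 11, against 1023 same and 584 opposite among the 1607 peaks that were not called. Across the 255 called peaks Pearson's r between the log2 changes of peak and host RNA was 0.54, and across the 178 hosts, with called peaks averaged, 0.51. Over all 12887 peaks with a measured host it was 0.21. These are correlations across regions that share livers and often a host, and are descriptions.

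Asap2 RNA fell with its peaks. It had 4.31, 5.24, 7.86 and 9.95 CPM in HFD livers A to D, against 34.6, 33.5, 24.6 and 28.8 CPM in CD livers A to D (log2 change -2.15, SE 0.24, edgeR adjusted p = 6.09e-04). Ppard RNA had 6.95, 5.91, 5.91 and 6.48 CPM in HFD, against 36.7, 26.9, 33.2 and 34.8 CPM in CD (log2 change -2.38, SE 0.13, edgeR adjusted p = 7.69e-06). RNA of Mreg (-1.0), Crtc3 (-0.81), Ypel2 (-1.16), Zbtb16 (-1.30) and the non-coding RNA Pvt1 (-1.95) was also lower. In these 7 genes the diets did not overlap, as in 14.3% of all genes. RNA was higher for Ppara, with 457, 605, 518 and 513 CPM in HFD, against 248, 258, 318 and 233 CPM in CD (log2 change 0.99, SE 0.13, edgeR adjusted p = 0.00116). RNA of Fads2 (1.27), Scarb1 (0.84), Cry2 (0.74), Hlf (0.56) and Pptc7 (0.53) was higher as well. The RNA calls of Crtc3, Cry2, Hlf and Pptc7 were lost when single livers were left out, with the highest adjusted p at 0.133, 0.0584, 0.107 and 0.0873.

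Called H3K9ac changes also stood in hosts whose RNA did not pass. Sh3pxd2a RNA had 43.5, 57.3, 64.2 and 78.9 CPM in HFD, against 65.6, 94.9, 95.4 and 85 CPM in CD (log2 change -0.48, SE 0.18, edgeR adjusted p = 0.154), with overlap. Rbm20 RNA had a log2 change of 0.91 (SE 0.27, edgeR adjusted p = 0.0698). RNA of Tex2 (-0.24), Ergic1 (-0.22) and Fkbp5 (-0.08) did not pass, and Adcy1 was not in the RNA table. For Tex2 and Ergic1 the RNA values of the diets did not overlap, as in 14.3% of all genes.

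The 11 called peaks that moved against their host's RNA lay in 7 genes. Fdft1 RNA had 138, 116, 74.2 and 111 CPM in HFD, against 230, 165, 190 and 197 CPM in CD (log2 change -0.83, SE 0.18, edgeR adjusted p = 0.0173), while its peak rose. Ddc RNA had 43.5, 38.6, 58.7 and 43.2 CPM in HFD, against 165, 128, 104 and 123 CPM in CD (log2 change -1.50, SE 0.17), while both of its called peaks rose. In both genes the RNA values of the diets were apart. Genes with lower peaks and higher RNA included 1500017E21Rik (RNA 1.45, 3 called peaks), the phosphatase gene Lhpp (0.91), 2900026A02Rik (0.61, 2 called peaks) and Agpat3 (0.43). Without HFD liver B 8 of the 11 peaks lost their H3K9ac call, and 3 kept it whichever library was left out, those in Fdft1 and Agpat3 and the stronger change in Ddc. The RNA calls of Fdft1 and 2900026A02Rik were lost without HFD liver B, among others, with edgeR adjusted p up to 0.0557 and 0.144. That of Agpat3 was lost only without HFD liver B (edgeR adjusted p = 0.0607). Whether these peaks act on a neighbouring gene was not tested.

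**Figure D5:**
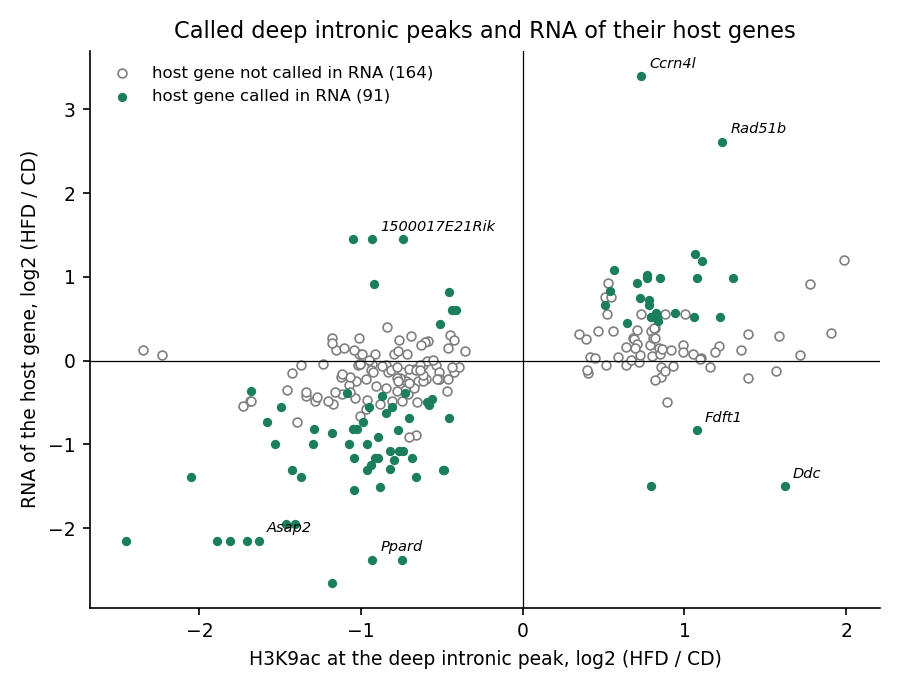
Change of the host gene's RNA against change of H3K9ac at the peak (both log2 of HFD over CD) for the 255 called deep intronic peaks with a measured host; filled points are the 91 whose host was called in RNA. Of these, 80 lie in the quadrants of equal direction and 11 in the others, among them Fdft1 and Ddc.

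Host promoters were compared in the same libraries. Of the 281 called peaks, 228 had a host with a promoter-proximal region, and that region was itself called for 56 (24.6%), in 26 hosts, each time in the direction of the peak. For peaks that were not called it was called for 601 of 11230 (5.35%), 434 in the same and 167 in the opposite direction. In Ppara, Ppard and Tex2 the promoter-proximal region did not pass. Nearest the distance limit on the inside, peaks in Lpp, Rexo2 and Cdc6 had 3.91, 1.47 and 7.87 CPM, and outside it peaks in Smad1, Asap3 and Opa3 had 2.3, 1.48 and 2.12 CPM. Nearest the length limit on the inside, peaks in Abtb2, Cpt1a and Ppara had 47.6, 32.7 and 24.5 CPM, and outside it peaks in Sdc1, Zmiz1 and Arhgap26 had 43, 71.9 and 60.2 CPM.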

How the data were processed

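Each assay came as a single table. In it the authors deposited raw read counts for every library (per the file headers), a log2 level (CPM for H3K9ac, FPKM for RNA), and their own log2 ratio with p-value and FDR. Regions are shared by all H3K9ac libraries, with mm10 coordinates (submitters' processing notes). How regions were called and reads were aligned and counted, strand included, is not given in the sources used here. Overlapping antisense genes and near-identical copies (Ass1 and Gm5424) therefore cannot be told apart. Of 17 labelled libraries, a CD input and 2 CD open chromatin libraries were not analysed here. RNA column headings carry numbers of unstated meaning in separate ranges for the 2 diets, and anything they mark cannot be told apart from diet.

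Of 57571 H3K9ac lines, repeats of a region were dropped (57499 kept), as were 4999 RNA lines without a name (12334 genes kept). Deep intronic peaks were selected from annotation columns. The members, gene lists and comparisons were chosen with earlier results of these data known. Counts were fitted per assay over the whole table with edgeR 4.0.16 in R 4.3.3 (TMM, filterByExpr, which removed 0 features, glmQLFit and glmQLFTest, diet as the only term), two-sided, with Benjamini-Hochberg adjustment and a threshold of 0.05. The procedure was tested on simulated data. SE is the size of the log2 change over the square root of F. Shares were compared with an exact permutation test. Named peaks are the 10 largest increases and decreases among called peaks at or above the median level of 1.93 CPM with diets not overlapping, the 5 highest by level, called peaks of each list, and those of smallest p among called peaks with a called host. The 15 smallest p, hosts with several calls and peaks opposite to their host's RNA were chosen after their values were seen. Over all pairs of libraries of an assay, within and across the diets, chi-square divided by its degrees of freedom was at least 1.49 for H3K9ac and 32 for RNA, above sampling noise. The labels do not say whether libraries came from separate animals, so p-values measure the spread between these samples. Floors cover counting error only. Alternatives were DESeq2 1.42.0, library totals, a median filter, no filter, letter as a block, leaving out each library, and other distance and length limits. A planned motif search over whole peaks was not run. Some results are not reported here.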

Additional observations from a re-analysis of the deposited data

Results flagged for a closer look

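Among 42 groups of 4 RNA libraries, those of the hosts of named peaks, 2 held a library that stood apart from the other 3 by Dixon's criterion, which flags about 1 in 20 groups by chance. Pptc7 RNA was 20.4 to 27.5 CPM in HFD livers, against 18.3 CPM in CD liver B, the library that stood apart, and 15.5 to 15.9 CPM in the other CD livers. Rbm20 RNA was 2.89 to 4.67 CPM in HFD livers, against 3.32 CPM in CD liver C, which stood apart, and 1.46 to 1.76 CPM in the other CD livers. The H3K9ac groups of 3 are too small for this check.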

How the results depend on the processing

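The count of called deep intronic peaks was 281. DESeq2 gave 149, testing only regions above the median level gave 159, and a distance limit of 20000 bases, which leaves fewer peaks, gave 181. With 1 library left out it ranged from 104 (without HFD B) to 345 (without HFD D). It was 243 with library totals and 300 with no limit on length. The cause of the lower DESeq2 count was not tested. Over all regions, 1372 calls became 798 with DESeq2 and 887 with the median filter, and 563 to 1862 with a library left out. The 307 host genes called in RNA became 481 with DESeq2 and 146 (without HFD B) to 364 (without HFD A). Leaving out CD A gave 184, CD B 177 and CD C 190. Called peaks with a called host numbered 91, and 69 with DESeq2 and 64 with library totals in both assays. The difference in the share of counts ranged from -0.229 to 0.0742 percentage points with a library left out, and reversed to 0.0742 without HFD D. The share of calls that were higher in HFD was 33.5%, and 51.9% without HFD D, 24.3% without CD C and 25.2% with the replicate block. With the letter as a replicate block, 226 deep intronic peaks (57 higher, 169 lower), 1277 regions and 270 host genes were called, and 180 of the 281 were among the 226. In H3K9ac the letter B occurs only in HFD and C only in CD, so this refit compared the diets through A and D alone. Deviations of same-lettered libraries correlated at 0.0898 (A) and 0.081 (D) in H3K9ac and between -0.222 and 0.295 in RNA, so the letters were not taken as pairs. Of the 281 calls, 73 were kept whichever library was left out. DESeq2 kept 149 of the 250 for which it gave an adjusted p, and 0 of the 281 reversed in any refit. For 64 called peaks (the largest changes, listed genes, and peaks with a called host that had the smallest p or the opposite direction), 163 of 682 refits lost the call, most often without HFD B (33 of 64). Library totals shifted the median log2 change of all regions by 0.01. Summing the counts of all deep intronic peaks of a host, added after seeing the data, gave 150 of 3579 hosts past the threshold (64 higher, 86 lower). With a median of 21.2 reads per library, small changes at weak peaks were not detectable at this depth.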

Other observations

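Camk2b, a calcium-dependent kinase gene, was the only host with called deep intronic peaks in both directions, and its livers differed within a diet. Its strongest peak, 52 kb from the nearest start, had 62.4, 27.7 and 23.8 CPM in HFD livers A, B and D, against 55.5, 114 and 62.4 CPM in CD livers A, C and D. The diets overlapped. The edgeR call (log2 change -1.02, SE 0.17, adjusted p = 3.01e-05) was lost without CD C (adjusted p = 0.0732) and by DESeq2 (adjusted p = 0.552). A peak 44.3 kb from the start, with 22.2, 19.5 and 18.6 CPM in HFD against 12.5, 9.83 and 15.4 CPM in CD, was called higher (log2 change 0.68, SE 0.15, edgeR adjusted p = 0.002) and lost the call without CD C as well (adjusted p = 0.0896).

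Mtss1 RNA was higher in HFD (log2 change 0.95, SE 0.12, edgeR adjusted p = 9.69e-04), while 0 of its 56 deep intronic peaks were called and their summed counts had a log2 change of 0.07 (SE 0.11). Ccrn4l RNA had 52.2, 60.9, 18.3 and 18.7 CPM in HFD livers A to D, against 3.17, 5.84, 2.7 and 2.46 CPM in CD livers A to D (log2 change 3.40, SE 0.46), while its called peak had 22.2, 17.8 and 12.4 CPM in HFD and 12.3, 9 and 10.5 CPM in CD (log2 change 0.73, SE 0.16).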
